A study of Homo sapiens with 6 samples.

Results

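The SLC25 family holds the carriers of the mitochondrial inner membrane, here taken as every row of the deposited table whose symbol is SLC25A plus a number and whose normalised count averaged 10 or more. By this rule 41 genes were members, out of 14889 genes that reached that level and 57820 annotated genes. RNA was sequenced from U2OS, a human cell line established from an osteosarcoma, after 4 h with 5 µM NMS-873 (3 libraries) or with 0.05% DMSO (3 libraries). NMS-873 blocks VCP at an allosteric site; VCP is an ATPase that extracts ubiquitylated proteins from membranes and complexes, and DMSO is the solvent it was dissolved in. The libraries of both treatments came from the same line, with no genetic change stated in the labels. The comparison asked how transcripts of these cells responded to NMS-873, and the members were set side by side by the substrate that each carrier moves. With a single compound at a single dose, effects through VCP and other effects of the compound cannot be told apart.

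Carriers of this family are small proteins of the inner membrane that share a structure built of repeats and swap or import metabolites that the membrane would otherwise hold back. They bring ADP, phosphate, cofactors and fuel acids into the matrix and take ATP, citrate and other products out, and so tie respiration to the metabolism of the cytosol. They are encoded in the nucleus, made in the cytosol and inserted into the inner membrane by the TIM22 complex.

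Each library held between 21132311 and 22488952 reads in annotated genes, and the deposited values were scaled to ERCC spike-in RNA. DDIT3, a stress transcription factor, averaged 6884 ± 266 normalised counts with NMS-873 and 199 ± 11.9 with DMSO (SD, n = 3 libraries each, as for all levels below), and VCP 21096 ± 174 with NMS-873 and 18070.3 ± 662 with DMSO. Of 6 osteoblast lineage markers 4 passed the count minimum and 3 of these fell, COL1A1 (log2 fold change -0.43, adjusted p = 3.79e-08), RUNX2 (-0.95, 4.24e-16) and ALPL (-0.20, 0.0413), while SPARC, at 431 ± 10.6 FPKM with NMS-873 and 442 ± 7.05 with DMSO, did not pass. SP7 and COL1A2 stayed below the minimum. Of the blood markers CD3E was listed at 0 and PTPRC had 7.69 ± 5.51 normalised counts with NMS-873 and 13.3 ± 4.66 with DMSO. KRT19 was below the count minimum, and EPCAM stood at 73.5 normalised counts with NMS-873 and 77.3 with DMSO. The part of these marker levels in the results below was not tested. NMS-873 replicate 1 stood apart from the other libraries of its treatment: comparing its reads with theirs gave a chi-square per degree of freedom of 6.84 and 7.27, while that between replicates 2 and 3 was 1.72. DMSO replicate 3 differed from the other DMSO libraries by 3.28 and 3.33, against 1.47 between DMSO replicates 1 and 2.

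Most carriers changed little, a few rose clearly, and more fell than rose. At an adjusted p under 0.05 in limma, run on log2(normalised count + 1) over all 14889 genes, 17 of the 41 carriers passed, 5 higher and 12 lower with NMS-873. Of all genes tested 47.9% passed, 14.9% higher and 33.0% lower, against 12.2% and 29.3% of the carriers. The share of carriers that passed was thus close to the background in each direction. The median log2 fold change was -0.13 over the carriers and -0.10 over all genes tested, and the carriers ranged from -0.99 for SLC25A34 to 0.98 for SLC25A25. In these bulk libraries fewer cells with a transcript and less of it per cell cannot be told apart. Of the 41 carriers 5 both passed and changed at least 1.5-fold, a share near the 12.1% of all genes.

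The split between higher and lower depended on the scale. On the spike-in scale the typical gene stood at -0.10 (log2), and with factors taken from the genes themselves it stood at -0.0092. On that gene-based scale 8 carriers were higher and 6 lower, where 24.2% of all genes were higher and 22.0% lower, and with TMM factors the counts were also 8 and 6, where 24.4% of all genes were higher and 21.8% lower. The 5 carriers called higher, SLC25A25, SLC25A33, SLC25A32 and SLC25A28 among them, were past the test and higher under each of the 17 alternatives run. Of the 12 called lower, SLC25A11, SLC25A12, SLC25A30, SLC25A37 and SLC25A53 passed under each of the 17, and SLC25A34 under each of the 16 in which it was tested. Without NMS-873 replicate 1 the counts were again 5 higher and 12 lower, and 10 of the 12 lower calls were among them. Without DMSO replicate 3 they were 5 higher and 11 lower, with 10 of the 12 retained.

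**Figure D1:**
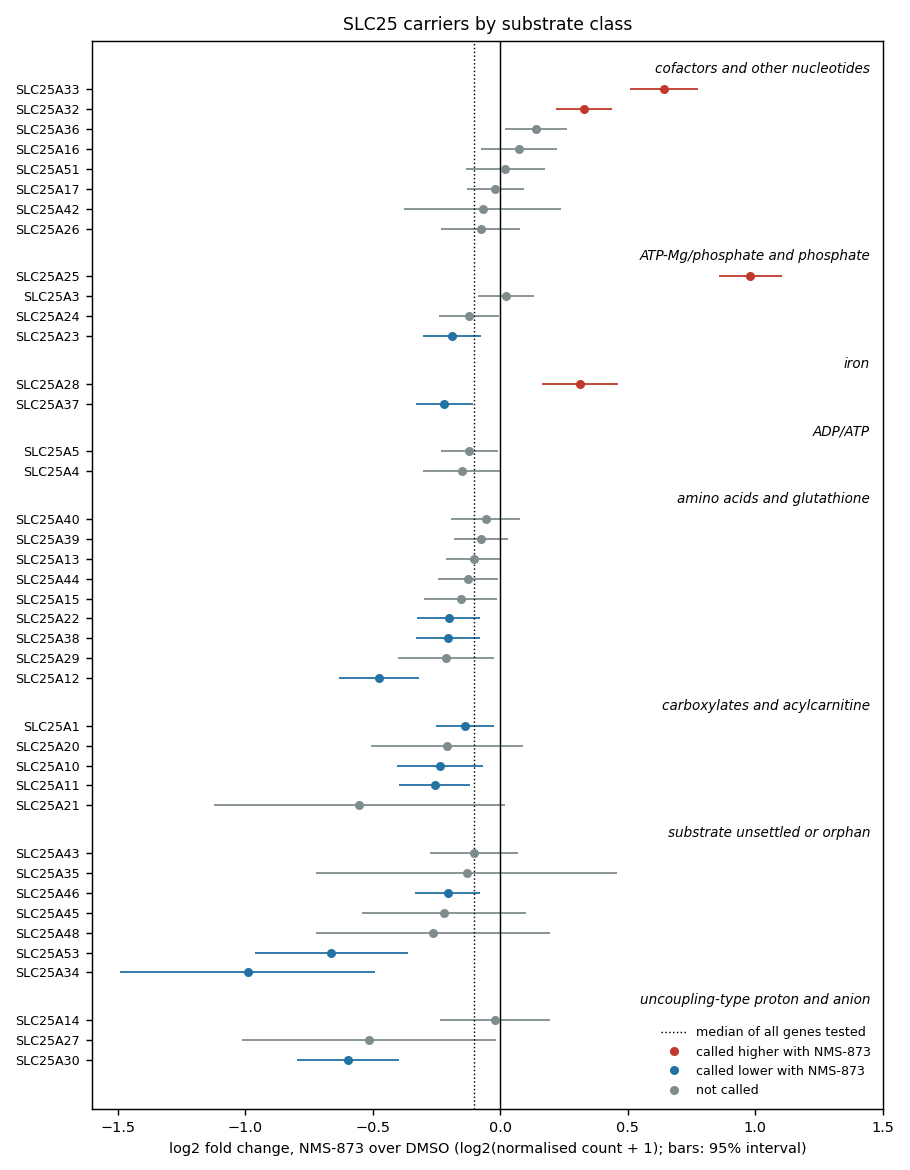
Log2 fold change of 40 of the carriers (NMS-873 over DMSO, on log2(normalised count + 1)), grouped by substrate class, with its 95% interval from limma; red marks carriers called higher with NMS-873, blue those called lower, grey those not called, and the dotted line the median of all genes tested at -0.10. SLC25A25 stands farthest to the right at 0.98 and SLC25A34 farthest to the left at -0.99, and no member for cofactors and other nucleotides is called lower.

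The carriers of nucleotides and cofactors held most of the rises. Rises passed the test in 3 of 9 and falls in 0, where 14.9% of all genes rose and 33.0% fell, and their log2 fold changes had a median of 0.07. Without adjustment, 4 were higher and 0 lower at p under 0.05 (limma). With gene-based factors 5 were higher and 0 lower, as with TMM factors and after quantile normalisation, and with equal totals 4 were higher and 0 lower. SLC25A33 (chromosome 1, 9599541 to 9645237, hg19), which imports pyrimidine nucleotides used for mitochondrial DNA and RNA, had 703, 753 and 883 normalised counts in NMS-873 replicates 1 to 3, against 486, 473 and 534 in DMSO replicates 1 to 3. All NMS-873 libraries lay above all DMSO libraries, and NMS-873 replicate 3 was the highest of the 6. It rose 1.56-fold (0.64 ± 0.0681 SE on the log2 scale, adjusted p = 5.77e-17).

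SLC25A32 (chromosome 8, 104410863 to 104427417) carries folate into mitochondria and is also linked to the import of the flavin cofactor FAD. It had 2031, 2011 and 2134 normalised counts with NMS-873, against 1562, 1600 and 1761 with DMSO, and the groups did not overlap. It ranked 6 among the carriers in level per length, and it rose 1.26-fold (adjusted p = 9.85e-08). DCAF13, on the other strand, overlaps 476 bases of SLC25A32. It averaged 4529 normalised counts and stood at 0.06, and whether counting used strand is not known.

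The other 6 cofactor and nucleotide carriers did not pass. SLC25A36, the second pyrimidine nucleotide carrier, came nearest, at 939 ± 27.0 normalised counts with NMS-873 and 855 ± 72.9 with DMSO (log2 fold change 0.14, 95% interval 0.02 to 0.26, adjusted p = 0.0544), and it was called higher at 0.23 with gene-based factors and at 0.20 without DMSO replicate 1. SLC25A16, linked to coenzyme A, stood at 0.07, and was likewise called higher with gene-based factors at 0.17. SLC25A51, the importer of NAD, stood at 0.02 with an interval from -0.14 to 0.18. SLC25A17, a carrier of peroxisomes for coenzyme A, FAD and NAD, stood at -0.02 (interval -0.13 to 0.09), and SLC25A42, a coenzyme A carrier, and SLC25A26, which imports the methyl donor S-adenosylmethionine, stood at -0.07 and -0.08. Summed over the 9 carriers, FPKM averaged 74.6 ± 2.68 with NMS-873 and 64.2 ± 3.34 with DMSO, or 10.4% of the family's summed FPKM with NMS-873 and 8.59% with DMSO. The lowest NMS-873 sum, 72.7, lay above the highest DMSO sum, 67.9.

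SLC25A25 rose most. It is a calcium-sensitive carrier that exchanges ATP-Mg for phosphate and so sets the size of the adenine nucleotide pool in the matrix. The gene (chromosome 9, 130830480 to 130871524) had 1096, 1179.5 and 1182 normalised counts with NMS-873, against 595, 551 and 604 with DMSO. Its NMS-873 libraries lay between 1096 and 1182 and its DMSO libraries between 551 and 604, with a wide gap between the groups. It rose 1.97-fold (0.98 ± 0.0628 SE on the log2 scale, adjusted p = 3.39e-37). Without the variance trend in limma its adjusted p was 1.69e-04. Per length the level was 10.6 ± 0.452 FPKM with NMS-873 and 5.37 ± 0.260 with DMSO.

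Promoter windows of the carriers were read from RefSeq, build GRCh38.p14, from 250 bases before to 50 after each start. They were found for 35 of the 41 carriers, 6 of them with several starts. In these windows 4 sets of letters were searched on both strands: TGATGNAA, the core of the amino acid response elements bound by ATF4 with a partner; CACGTG, the E-box bound by MYC and its relatives; the core of sites of NRF1, a regulator of many mitochondrial genes, searched as GCGC and TGCGC with any 1 base between; and TGACGTCA, the cAMP response element bound by factors of the CREB and ATF families. The last was added after these letters had been seen in the windows of carriers that rose, so its counts only describe them. The windows of called carriers that hold the amino acid response or the cAMP response letters are shown, with every match in capitals, because they include those of the carriers that rose most.
SLC25A25 (higher; chr9:128098257-128098556, plus strand; 1 of its 3 starts): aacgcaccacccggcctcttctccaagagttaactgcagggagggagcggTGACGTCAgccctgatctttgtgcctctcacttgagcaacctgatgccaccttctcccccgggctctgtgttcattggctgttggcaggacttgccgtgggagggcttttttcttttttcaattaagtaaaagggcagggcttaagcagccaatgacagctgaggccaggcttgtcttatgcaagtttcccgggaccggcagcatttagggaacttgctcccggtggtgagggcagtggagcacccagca
SLC25A33 (higher; chr1:9539215-9539514, plus strand): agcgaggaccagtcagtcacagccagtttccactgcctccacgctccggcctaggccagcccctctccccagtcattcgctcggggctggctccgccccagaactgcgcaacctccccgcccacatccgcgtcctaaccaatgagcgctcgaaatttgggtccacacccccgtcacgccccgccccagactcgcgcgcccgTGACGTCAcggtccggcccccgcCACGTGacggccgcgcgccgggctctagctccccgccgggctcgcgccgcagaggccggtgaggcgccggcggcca
SLC25A11 (lower; chr17:4939997-4940296, minus strand): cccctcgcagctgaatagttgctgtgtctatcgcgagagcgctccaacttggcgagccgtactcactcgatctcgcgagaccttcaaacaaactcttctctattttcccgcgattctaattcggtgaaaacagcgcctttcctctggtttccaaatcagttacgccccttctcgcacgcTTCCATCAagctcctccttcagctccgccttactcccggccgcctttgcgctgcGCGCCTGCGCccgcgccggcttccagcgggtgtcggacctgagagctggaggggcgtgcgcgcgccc

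The cAMP response letters stood 200 bases before the start in SLC25A25 and 49 bases before it in SLC25A33, where an E-box followed, 26 bases before the start. Among 35 carriers with a window they were also in that of SLC25A36, and they were in 2.25% of the 27305 genes with a window. The amino acid response letters were found in the window of SLC25A11, which fell, and in no other carrier, including the 3 risen carriers with a window, SLC25A25, SLC25A33 and SLC25A28; they were in 4.46% of all genes. The E-box letters were in 8 of the 35, of which 1 was called higher, 3 lower and 4 not called, and in 8.77% of all genes. The NRF1 letters were in 3, SLC25A3, SLC25A11 and SLC25A51, and in 6.98% of all genes. In GC content the windows of carriers called higher, called lower and not called had medians of 61.0%, 66.7% and 66.0%. The median of all windows was 58.7%, and the shares above were not adjusted for this. A match describes the letters and not a bound site, and windows elsewhere in the genes were not searched.

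The other carriers of ATP-Mg or phosphate were lower or did not pass. SLC25A23 (chromosome 19, 6436090 to 6465214), another ATP-Mg and phosphate exchanger, had 1142, 1206 and 1266 normalised counts with NMS-873, against 1350.2, 1378 and 1395 with DMSO. The groups did not overlap and the level fell 1.14-fold (log2 fold change -0.19, adjusted p = 0.00337), a call lost with gene-based and TMM factors, where the change was -0.10 (adjusted p = 0.051 and 0.0541). SLC25A24, the third such exchanger tested, was at 1088 ± 96.8 normalised counts with NMS-873 and 1183 ± 13.7 with DMSO and did not pass (log2 fold change -0.12, adjusted p = 0.0728), but it did at -0.19 without NMS-873 replicate 3. It also passed as lower at -0.12 with equal totals and with the replicate number as a block. SLC25A41, a calcium-independent relative, had 4 to 7 reads per library with NMS-873 and 5 to 9 with DMSO and was below the count minimum. Its mean of 6.15 normalised counts was the highest outside that limit, and the 15.3 of SLC25A35 the lowest within it. SLC25A3 (chromosome 12, 98987369 to 98995946), the phosphate carrier that feeds ATP synthase, had 8638, 8888 and 8922 normalised counts with NMS-873, against 8532, 8426 and 9133 with DMSO. These values overlapped, and the log2 fold change of 0.02 had an interval from -0.09 to 0.13 (adjusted p = 0.788). With gene-based factors SLC25A3 was called higher, at 0.11, and with TMM factors at 0.12.

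The most abundant carrier of all was SLC25A5 (chromosome X, 118602363 to 118605282), an ADP/ATP exchanger and the form typical of dividing cells. It had 9641, 10442 and 10228 normalised counts with NMS-873, against 10722, 10622 and 11639 with DMSO. All NMS-873 libraries were below all DMSO libraries, by a small margin, and the difference did not pass here (log2 fold change -0.12, adjusted p = 0.0682), although in the authors' deposited table its adjusted p was 0.0378. With equal totals, with quantile normalisation, with voom and with the replicate number as a block it passed as lower, while with gene-based and TMM factors its log2 fold change was -0.03 (adjusted p = 0.539 and 0.557). SLC25A4, the exchanger typical of muscle, was at 356 ± 9.41 normalised counts with NMS-873 and 396 ± 26.4 with DMSO (log2 fold change -0.15, adjusted p = 0.0952). SLC25A5 has many processed pseudogenes, and of these only SLC25A5P4 and SLC25A5P5 had any read in the table, at means of 0.498 and 0.339 normalised counts.

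A further ADP/ATP exchanger, SLC25A6, was listed at 0 in all 6 libraries, on both its X and its Y row. It lies in the pseudoautosomal region shared by both chromosomes, and all 47 genes that the table lists on X and on Y were at 0 in both rows. Its zero is therefore no measure of its transcript, and the ADP/ATP class below lacks it. SLC25A31, the exchanger of germ cells, was also listed at 0, as was SLC25A2, an ornithine carrier. SLC25A18, SLC25A47 and SLC25A52 had at most 4 reads in any library, and a second row for SLC25A10 was at 0.

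Among the carriers of amino acids and glutathione 3 of 9 fell and 0 rose, a share of falls near the 33.0% of all genes. All 9 log2 fold changes were below 0, and their median was -0.16. Without adjustment, 0 were higher and 6 lower at p under 0.05 (limma). With gene-based factors 0 were higher and 1 lower, and the members then stood on both sides of 0, since SLC25A39 and SLC25A40 turned to 0.02 and 0.04. With equal totals 0 were higher and 6 lower, and after quantile normalisation 0 were higher and 5 lower. The clearest fall was that of SLC25A12 (chromosome 2, 172640880 to 172864766), an aspartate/glutamate carrier of the malate-aspartate shuttle, which brings reducing equivalents of NADH into mitochondria. It had 273, 307 and 294 normalised counts with NMS-873, against 415, 381 and 419 with DMSO. The groups were well apart and the level fell 1.39-fold (-0.48 ± 0.0798 SE on the log2 scale, adjusted p = 7.08e-08). HAT1, on the other strand, overlaps 69642 bases of SLC25A12 and stood at 0.04, and no source used here says whether counting used strand.

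SLC25A13, the second carrier of that shuttle and the more abundant by far in these cells, was at 25.9 ± 0.758 FPKM with NMS-873 and 27.9 ± 1.80 with DMSO, while SLC25A12 was at 2.58 ± 0.155 FPKM with NMS-873 and 3.59 ± 0.184 with DMSO. The change of SLC25A13 did not pass (log2 fold change -0.11, adjusted p = 0.103), but did without DMSO replicate 2, at -0.15. It also passed as lower with equal totals and after quantile normalisation, at -0.10 in both. SLC25A22 (chromosome 11, 790475 to 798316), a glutamate carrier, had 749.8, 783 and 784 normalised counts with NMS-873, against 873, 856 and 939 with DMSO. SLC25A38 (chromosome 3, 39424839 to 39438842), which imports glycine for heme synthesis, had 699, 749 and 721 normalised counts with NMS-873, against 859.7, 796 and 845 with DMSO. In both genes every NMS-873 library was below every DMSO library. Each fell 1.15-fold (adjusted p = 0.0042 and 0.00414), and neither passed with gene-based factors (adjusted p = 0.0545 and 0.0593) or with TMM factors (adjusted p = 0.0571 and 0.0622).

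The glutathione carrier SLC25A39 (chromosome 17, 42396993 to 42402238) was the most abundant of the class. It had 4927, 5203 and 5120.3 normalised counts with NMS-873, against 5217, 5238 and 5619.6 with DMSO. The groups lay side by side without overlap, and the difference did not pass (log2 fold change -0.08, 95% interval -0.18 to 0.03, adjusted p = 0.248). After quantile normalisation SLC25A39 passed as lower, at -0.09. The close relative of SLC25A39, SLC25A40, was at 591 ± 64.6 normalised counts with NMS-873 and 613 ± 37.6 with DMSO. SLC25A15, the ornithine carrier of the urea cycle, SLC25A44, a carrier of branched-chain amino acids, and SLC25A29, a carrier of basic amino acids, stood at -0.16, -0.13 and -0.21 and did not pass (adjusted p = 0.0657, 0.0665 and 0.0531). All 3 passed as lower without NMS-873 replicate 3, at -0.20, -0.17 and -0.27. SLC25A15 also did without DMSO replicate 2, at -0.21, and SLC25A29 without NMS-873 replicate 1, at -0.25. With all libraries kept, all 3 passed as lower with the replicate number as a block. SLC25A15 and SLC25A44 also did with equal totals, and SLC25A29 with a count minimum of 50.

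Among the carriers of carboxylates and acylcarnitine 3 of 5 fell and 0 rose, where 33.0% of all genes fell and 14.9% rose, and the log2 fold changes had a median of -0.24. With gene-based factors 1 fell and 0 rose. SLC25A11 (chromosome 17, 4840425 to 4843546), which exchanges oxoglutarate for malate in the malate-aspartate shuttle, had 461, 465 and 451 normalised counts with NMS-873, against 529.6, 549.6 and 569 with DMSO. Replicates of each treatment were tightly grouped, and the level fell 1.2-fold (-0.26 ± 0.0707 SE on the log2 scale, adjusted p = 0.00114). RNF167, on the other strand, overlaps 244 bases of SLC25A11, averaged 1089 normalised counts and stood at -0.18. SLC25A1 (chromosome 22, 19163095 to 19166343), the citrate carrier that supplies the cytosol with carbon for fatty acid and sterol synthesis, had 1164, 1266 and 1291 normalised counts with NMS-873, against 1342, 1350.2 and 1401 with DMSO. Its groups did not overlap and it fell 1.1-fold (adjusted p = 0.0373).

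That call was the least stable of the family. SLC25A1 did not pass with gene-based or TMM factors, without the variance trend, without a count minimum, or when NMS-873 replicate 1 or 2 or any of the 3 DMSO libraries was left out, with adjusted p up to 0.396. SLC25A10 (chromosome 17, 79670404 to 79688042), the dicarboxylate carrier, had 239, 276 and 317 normalised counts with NMS-873, against 299, 316 and 361 with DMSO. Its groups overlapped, although it passed at adjusted p = 0.015 with a log2 fold change of -0.24. It did not pass without NMS-873 replicate 1 or DMSO replicate 3, with gene-based or TMM factors, after quantile normalisation, on log2(FPKM + 0.1) or without the variance trend. A row of MRPL12 on the same strand overlaps 4153 bases of it, so its reads are uncertain. In the authors' deposited table neither SLC25A1 nor SLC25A10 passed (adjusted p = 0.0786 and 0.129). SLC25A20, the carnitine and acylcarnitine carrier, and SLC25A21, a carrier of oxoadipate, had few reads and stood at -0.21 and -0.55 (adjusted p = 0.255 and 0.104). SLC25A21 stood at -0.20 without NMS-873 replicate 1, and it passed as lower at -0.98 without NMS-873 replicate 2 and at -0.78 without DMSO replicate 3 (adjusted p = 0.00933 and 0.0361).

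The iron carriers moved in opposite directions. SLC25A28, the mitoferrin of most tissues, and SLC25A37, the mitoferrin best known from red cell precursors, both import iron for heme and iron-sulfur cluster synthesis. SLC25A28 (chromosome 10, 101370282 to 101380366) had 430.1, 446 and 456 normalised counts with NMS-873, against 341, 355 and 378 with DMSO, a rise of 1.24-fold (0.31 ± 0.0759 SE on the log2 scale, adjusted p = 2.39e-04). SLC25A37 (chromosome 8, 23386318 to 23432976) had 1306, 1291 and 1332 normalised counts with NMS-873, against 1579, 1482 and 1519 with DMSO, a fall of 1.17-fold (-0.22 ± 0.0569 SE on the log2 scale, adjusted p = 5.28e-04). In neither gene did the groups overlap, and per length SLC25A28 was the higher with NMS-873, at 11.6 ± 0.343 FPKM against 7.36 ± 0.116 for SLC25A37, while with DMSO the levels were 9.35 ± 0.485 FPKM for SLC25A28 and 8.58 ± 0.273 for SLC25A37.

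The largest falls that passed were in carriers of low abundance. SLC25A34 (chromosome 1, 16062900 to 16067891), whose substrate is unsettled, had 17.04, 13.7 and 14.5 normalised counts with NMS-873, against 27.8, 40.9 and 25.8 with DMSO, where DMSO replicate 2 was the highest. The groups did not overlap and the level fell 1.99-fold on the log2(normalised count + 1) scale (adjusted p = 4.68e-04). SLC25A53 (chromosome X, 103343898 to 103401708), also without a settled substrate, had 49.1, 49.9 and 59.98 normalised counts with NMS-873, against 67.9, 90.3 and 97.2 with DMSO, a 1.58-fold fall (adjusted p = 9.53e-05). SLC25A30 (chromosome 13, 45967451 to 45992590), a relative of the uncoupling proteins, had 136, 149.8 and 139.6 normalised counts with NMS-873, against 206, 225 and 215 with DMSO. Its groups lay far apart for their spread, and it fell 1.51-fold (-0.60 ± 0.101 SE on the log2 scale, adjusted p = 9.23e-08).

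SLC25A46 (chromosome 5, 110073837 to 110100857) lies in the outer membrane, where it takes part in the shaping of mitochondria. It had 633, 689 and 663 normalised counts with NMS-873, against 773, 750.2 and 767 with DMSO. The groups did not overlap and the fall was 1.15-fold (adjusted p = 0.00455), a call lost with gene-based and TMM factors (adjusted p = 0.0606 and 0.0636). The uncoupling-type carrier SLC25A14 had 135, 147 and 150.0 normalised counts with NMS-873, against 142, 137 and 159.8 with DMSO, and these overlapped (log2 fold change -0.02, 95% interval -0.24 to 0.20, adjusted p = 0.897). Its relative SLC25A27 was at 18.1 ± 3.71 normalised counts with NMS-873 and 26.1 ± 3.02 with DMSO and did not pass (adjusted p = 0.0819), but did without NMS-873 replicate 1, at -0.66. It also passed as lower without the variance trend, at -0.52. SLC25A35, SLC25A43, SLC25A45 and SLC25A48, with unsettled substrates, had log2 fold changes between -0.26 and -0.10 and did not pass.

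**Figure D2:**
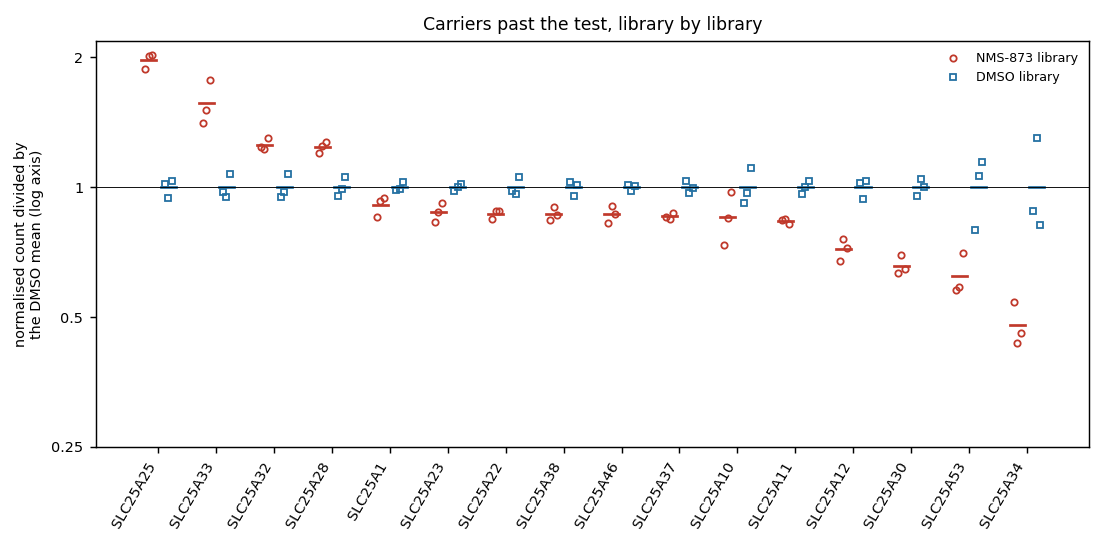
Normalised count of each library divided by the mean of the 3 DMSO libraries (log axis), for 16 of the carriers past the test, ordered by fold change; circles are NMS-873 libraries, squares DMSO libraries and lines the group means. In SLC25A10 the groups overlap and in the others shown they do not, at 239, 276 and 317 normalised counts with NMS-873 against 299, 316 and 361 with DMSO.

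Over the family as a whole, groups did not overlap in 21 of the 41 carriers, 5 higher and 16 lower with NMS-873, where 53.6% of all genes tested showed this, 16.4% higher and 37.2% lower. The carriers differed widely in level. SLC25A5 alone made up 44.0% of the family's summed FPKM, at 308 ± 12.7 FPKM with NMS-873 and 335 ± 17.1 with DMSO. SLC25A3, at 86.1 ± 1.51 FPKM with NMS-873 and 85.0 ± 3.72 with DMSO, and SLC25A39, at 66.0 ± 1.83 FPKM with NMS-873 and 69.5 ± 2.94 with DMSO, came next, and these 3 together held 65.0%. SLC25A1 and SLC25A13 followed at 28.5 and 26.9 FPKM over all libraries, neighbours whose levels with DMSO, 29.9 ± 0.702 and 27.9 ± 1.80, lay within about their spread. SLC25A25 changed its place in the order: at 10.6 ± 0.452 FPKM it was above SLC25A24, at 7.60 ± 0.676, and SLC25A37, at 7.36 ± 0.116, with NMS-873, and at 5.37 ± 0.260 it was below SLC25A24, at 8.27 ± 0.0960, and SLC25A37, at 8.58 ± 0.273, with DMSO.

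None of the 3 most abundant carriers passed the test. Of the 41 carriers 33 averaged at least 1 FPKM, and the 8 below it included SLC25A34 and SLC25A53. Across the 41 carriers the mean normalised count and the log2 fold change had a Spearman rho of 0.485, against 0.236 across all genes tested. The carriers share the same libraries, and the pseudocount and the depth act most on the low ones. With a pseudocount of 5 in place of 1, SLC25A34 stood at -0.84 and SLC25A53 at -0.63, against -0.99 and -0.66. The part of pseudocount and depth in this correlation was not tested. Gene span and log2 fold change had a rho of 0.02 across the carriers and 0.165 across all genes tested.

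The summed FPKM of the 41 carriers was 688, 729 and 729 in NMS-873 replicates 1 to 3, against 733, 723 and 785 in DMSO replicates 1 to 3, and these overlapped. By class, the ADP/ATP exchangers summed to 312 ± 12.6 FPKM with NMS-873 and 339 ± 17.4 with DMSO, the amino acid and glutathione carriers to 142 ± 4.66 with NMS-873 and 155 ± 6.40 with DMSO, and the carboxylate and acylcarnitine carriers to 40.5 ± 1.76 with NMS-873 and 45.8 ± 1.42 with DMSO. The ATP-Mg and phosphate carriers summed to 116 ± 3.14 with NMS-873 and 111.5 ± 3.98 with DMSO, where the libraries overlapped. These sums are led by their most abundant members and stand on the spike-in scale.

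**Figure D3:**
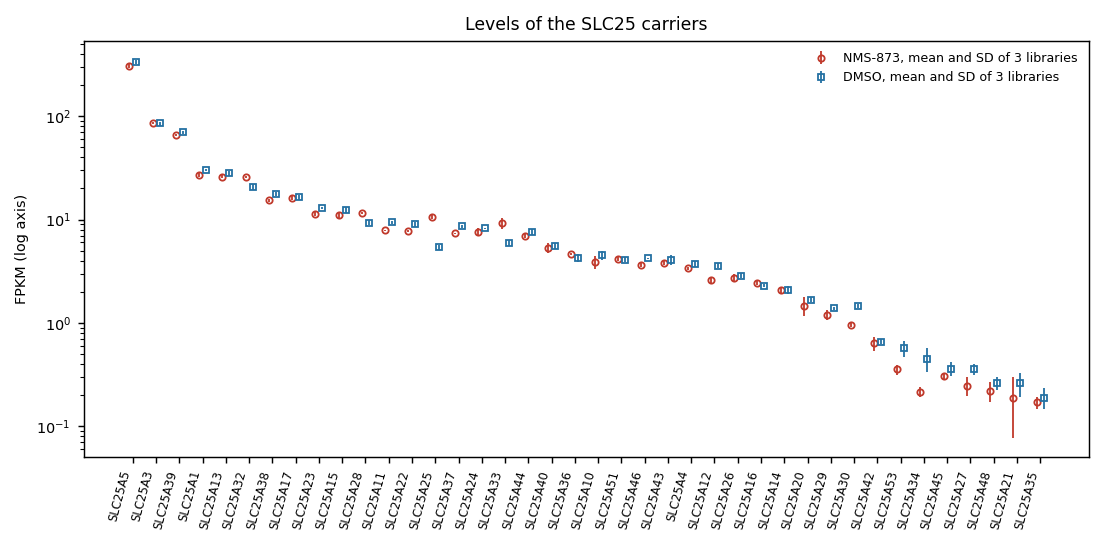
Level of 40 of the carriers in FPKM (log axis), ordered by its mean over all 6 libraries; circles are the mean of the 3 NMS-873 libraries and squares that of the 3 DMSO libraries, with SD. SLC25A5 leads at 308 ± 12.7 FPKM with NMS-873 and 335 ± 17.1 with DMSO, and the symbols stand well apart at SLC25A25, SLC25A33, SLC25A53 and SLC25A34.

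Of 4 tested proteins of the carrier family that bear other names, 0 rose and 3 fell, where 33.0% of all genes fell, and 2 fell with gene-based factors, TMM factors or quantile normalisation. MTCH1, of the outer membrane, was at 5370.0 ± 214 normalised counts with NMS-873 and 6236 ± 258 with DMSO, and fell (log2 fold change -0.22, adjusted p = 3.86e-04). MTCH2, its relative and an insertase of the same membrane, fell 1.12-fold (adjusted p = 0.00587) and did not pass with gene-based or TMM factors, without the variance trend or without DMSO replicate 3. UCP3, an uncoupling protein of muscle, had 7.997 ± 2.43 normalised counts with NMS-873 and 17.4 ± 8.42 with DMSO, with overlapping groups, and was called lower at adjusted p = 0.0142. That call was lost after quantile normalisation, without a count minimum, without the variance trend, and without NMS-873 replicate 3 or DMSO replicate 1, and its log2 fold change ranged from -1.26 to -0.62 over the alternatives.

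Of 15 tested genes of the TIM22 route and the outer membrane translocase, 6 fell and 2 rose (40.0% and 13.3%), near the 33.0% and 14.9% of all genes. With gene-based factors 5 fell and 5 rose, where 22.0% and 24.2% of all genes did. TIMM10B, a subunit that ties the small TIM chaperones to the TIM22 complex, had 1075, 1141 and 1109 normalised counts with NMS-873, against 659, 676 and 767 with DMSO. All its NMS-873 libraries lay above all DMSO libraries, a 1.58-fold rise (adjusted p = 9.16e-21). TIMM8A and TIMM8B, small chaperones of the intermembrane space, were at 585 ± 21.3 and 1035 ± 23.7 normalised counts with NMS-873, against 753 ± 41.3 and 1296 ± 90.0 with DMSO. Their log2 fold changes were -0.36 and -0.32 (adjusted p = 6e-07 and 7.49e-07).

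Among mitochondrial transporters outside the family 8 of 19 fell and 0 rose (42.1% and 0.0%), against 33.0% and 14.9% of all genes. On the gene-based scale 6 were higher and 4 lower, against 24.2% and 22.0% of all genes. The difference from the background was not tested. The lowest adjusted p values were those of sideroflexins, relatives of the mitochondrial serine transporter. SFXN3 was at 884 ± 52.4 normalised counts with NMS-873 and 1373 ± 76.0 with DMSO, and fell 1.55-fold (adjusted p = 1.06e-20). SFXN5 fell 1.37-fold (adjusted p = 7.33e-10), and SFXN1, the serine transporter itself, fell 1.18-fold (adjusted p = 8.02e-05). The other sideroflexins tested, SFXN2 and SFXN4, stood at -0.06 and 0.04 and did not pass. Regulators of mitochondrial biogenesis were higher in 2 of 8 cases and lower in 2, or 5 and 2 on the gene-based scale, with 14.9% of all genes higher and 33.0% lower, or 24.2% and 22.0%. PPARGC1B, a coactivator of mitochondrial genes, was at 122 ± 7.01 normalised counts with NMS-873 and 211 ± 27.1 with DMSO, and fell 1.72-fold (adjusted p = 2.77e-11). ESRRA, the nuclear receptor it works with, fell 1.24-fold (adjusted p = 4.11e-05), and PPRC1, a related coactivator, rose 1.17-fold (adjusted p = 1.75e-04).

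**Figure D4:**
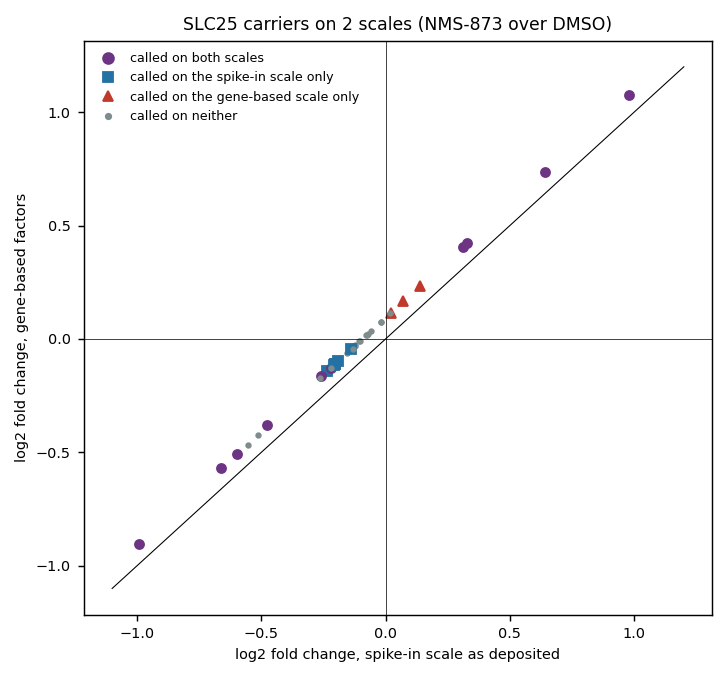
Log2 fold change of 40 of the carriers (NMS-873 over DMSO) on the deposited spike-in scale (x axis) and with factors from the genes (y axis); circles are called on both scales, squares on the spike-in scale only, triangles on the gene-based scale only, dots on neither, and the line marks equal values. All points lie above the line, SLC25A25 for example at 0.98 and 1.08, and 6 lower calls are lost while SLC25A3, SLC25A16 and SLC25A36 become higher calls.

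The authors' deposited table gave 16 of the 41 carriers an adjusted p under 0.05, where 36.6% of the genes tested here did. All 16 had the sign found here, 15 were among the 17 called, and the remaining one was SLC25A5. In the authors' deposited table the adjusted p was 5.75e-39 for SLC25A25, 4.37e-11 for SLC25A33, 5.86e-07 for SLC25A32 and 3.18e-05 for SLC25A12.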

How the data were processed

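Libraries of U2OS cells treated with NMS-873 or DMSO (3 each) were grouped by their titles. Per the submitters' processing notes, featureCounts 1.5.1, DESeq2 1.16.1 and build hg19 were used. The aligner and the strand setting are not given in the sources used here. Rows on the other strand also overlap further carriers. Among them are RANGRF over SLC25A35, at 303.8 normalised counts on average, and SLC25A21-AS1 over SLC25A21, at 19.8. The authors deposited FPKM per library, a mean normalised count per gene (a signal scaled by size factors), and the log2 fold change and adjusted p-value of their own comparison.

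The analysis design had assumed normalised counts as columns. These were rebuilt here from FPKM and the deposited mean. After undoing the size factors, 100.0% of non-zero values lay within 0.001 of whole reads, and the size factors matched the median of ratios over the 92 ERCC rows. Genes with a mean of at least 10 entered limma (version 3.58.1, under R 4.3.3) as log2(normalised count + 1), with an intensity trend, two-sided tests and Benjamini-Hochberg adjustment over 14889 genes, called at adjusted p under 0.05. The prior variance had 250.84 degrees of freedom against 4 residual ones. Each p-value thus rests mostly on spread pooled over genes of similar level, and little on that gene's own spread. On simulated data for this comparison (14889 genes) 52% of 1.25-fold, 86% of 1.5-fold and 92% of 2-fold changes were recovered, and 0.02% of unchanged genes were called. The simulation gave all genes the same spread beyond sampling noise and changed few of them. In the data 47.9% of genes passed, so these rates need not hold there.

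Values per library are given for up to 20 carriers past the test with the lowest adjusted p and for the most abundant carrier of each class. Other lists name at most 3 genes, those of lowest adjusted p, apart from SFXN2 and SFXN4. COL1A1, SPARC, SFXN2, SFXN4 and the carriers described without library values were chosen after their values were seen. Members, classes and lists were chosen with earlier results of these data known. The labels do not say that replicates were separate cultures. The p-values thus measure only how these samples vary, mostly pooled over genes, which may be technical spread. No replicates agreed within sampling noise (chi-square per degree of freedom 1.47 to 7.27). Alternatives covered scaling, count minimum, pseudocount, variance trend, voom, replicate block and leaving out each library. No protein sequences were used. A carrier past the test and a marker gene are not reported here by name and stay in the counts.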

Additional observations from a re-analysis of the deposited data

How the results depend on the processing

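Scaling turned the balance of higher against lower calls, and other choices moved the number of calls. With gene-based factors 3608 genes were higher and 3273 lower, with 8 carriers higher and 6 lower and a carrier median of -0.045 (log2); with TMM factors these were 3628 and 3250 genes, 8 and 6 carriers and -0.043. The 6 lower calls lost under both were SLC25A1, SLC25A10, SLC25A22, SLC25A23, SLC25A38 and SLC25A46; these factors raise every gene by about the shift of the median gene. Equal totals gave 6 higher and 17 lower carriers and quantile normalisation 7 and 14. The count minimum, pseudocount, log2(FPKM + 0.1), missing variance trend and voom gave 5 or 6 higher and 11 to 13 lower. Without the variance trend 1801 genes were higher and 3706 lower. The limma adjusted p was then 1.69e-04 for SLC25A25, 0.00418 for SLC25A33, 0.0102 for SLC25A32 and 0.00336 for SLC25A12. With the replicate number as a block 2352 genes were higher and 5255 lower, and 6 carriers higher and 17 lower. Deviations of same-numbered libraries had correlations of 0.039, -0.025 and 0.042. Whether the numbers pair the samples stays unknown, since the labels do not say and 3 libraries per treatment cannot decide it. Leaving out each library in turn gave 1870 to 2406 genes higher and 4005 to 4957 lower, 5 to 6 carriers higher and 11 to 16 lower, and a carrier median of -0.17 to -0.097.

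No called carrier changed sign under any of the 17 alternatives. Carriers that were not called and lay near 0 did. With gene-based and TMM factors SLC25A40 stood at 0.036 and 0.038, SLC25A39 at 0.019 and 0.020, SLC25A17 at 0.075 and 0.076, SLC25A42 at 0.023 and 0.024, SLC25A26 at 0.016 and 0.018, and SLC25A14 at 0.074 and 0.075. After quantile normalisation SLC25A3 stood at -0.013, SLC25A17 at 0.0084, SLC25A42 at 0.14, SLC25A26 at 0.016, SLC25A43 at 0.0018, SLC25A35 at 0.14 and SLC25A14 at 0.12. With a library left out SLC25A14 ranged from -0.065 to 0.046, SLC25A17 from -0.057 to 0.026, SLC25A40 from -0.11 to 0.036, SLC25A51 from -0.020 to 0.061, SLC25A42 from -0.14 to 0.071, SLC25A3 from -0.0021 to 0.056 and SLC25A35 from -0.30 to 0.021. The cause was not tested. Depth limits SLC25A34, SLC25A35, SLC25A21, SLC25A27 and SLC25A48, each under 50 normalised counts.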
